A study of Mus musculus with 4 samples.

Results

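The minus strand of the mouse mitochondrial chromosome was taken as every aligned read that lies on that strand of chromosome M, counted by its 5′ end in bins of 50 bp from position 1. The strand has 326 such bins, of 652 on both strands of the chromosome, and held 6322 reads over the 4 libraries. By their centres the bins were grouped into the control region (18 bins), the stretch antisense to Cytb (23 bins), Nd6 (10 bins), the stretch antisense to the genes from Nd5 to Nd1 (216 bins) and the stretch antisense to the rRNA genes (52 bins), in the order in which a polymerase on this strand meets them. The 7 bins whose centres fall between these stretches were kept as small groups of their own. Positions are 1-based in build mm8, and the choice of bins used no read count.

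The reads come from GRO-seq, a run-on assay in which polymerases that are already engaged add labelled nucleotides in isolated nuclei, so that nascent RNA is counted by place and strand. The cells were 3T3-L1, a clonal mouse line of fibroblast-like preadipocytes. They carried a control siRNA (siCTL) or siRNAs against GPS2 (siGPS2), a cofactor of nuclear transcription that is also found in mitochondria. Each was sampled without FCCP or after 3 hours of FCCP, an ionophore that lets protons leak across the inner mitochondrial membrane, at a dose not given in the sources used here. This gives 4 groups of 1 library each, namely the control siRNA without and with FCCP and the GPS2 siRNAs without and with FCCP. Where 4 values follow each other without names, they are in this order.

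Mitochondrial DNA is transcribed on both strands by a dedicated polymerase, POLRMT, with the factors TFAM and TFB2M. Transcription of the minus strand starts at a promoter in the control region, runs through Nd6 and 8 tRNA genes, and otherwise yields RNA antisense to the genes of the plus strand, most of which is short-lived. A termination factor, MTERF1, binds within the tRNA gene that lies between Nd1 and the rRNA genes and is known to stop minus-strand transcription there. Transcripts started at the same promoter also supply the primers of mitochondrial DNA replication.

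The transcripts shown here are the ones that mark the course of this strand. They were taken by gene name from GENCODE M21 (build GRCm38), since no genome of build mm8 was used here, and are written 5′ to 3′ as DNA in the sense of each gene. The tRNA genes for proline and glutamate are the ones a minus-strand polymerase meets before Nd6. Nd6, a subunit of respiratory complex I, is the strand's single protein-coding gene, and the first 120 of its 519 bases are given with the start codon in capitals.
mt-Tp: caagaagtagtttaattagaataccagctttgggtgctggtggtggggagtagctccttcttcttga
mt-Te: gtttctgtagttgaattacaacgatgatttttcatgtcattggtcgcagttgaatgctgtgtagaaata
mt-Nd6: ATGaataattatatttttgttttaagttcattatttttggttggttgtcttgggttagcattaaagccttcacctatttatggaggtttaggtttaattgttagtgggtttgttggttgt
The next sequence is mt-Tl1, the tRNA gene for leucine that contains the MTERF1 site. It is read from the plus strand and is 75 bases long, the length of the stretch from 2676 to 2750 between Nd1 and the rRNA genes.
mt-Tl1: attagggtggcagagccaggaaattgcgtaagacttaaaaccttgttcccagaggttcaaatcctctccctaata
Transcripts of the minus strand have few cytosines and many guanines. Nd6 is 5.97% C and 28.1% G, whereas the 12 mRNAs of the plus strand lie between 22.1% and 30.0% C and between 5.88% and 16.1% G. The 8 tRNAs of the minus strand have a median of 13.9% C and 23.0% G. No measure of reads was set against this composition.

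Each library holds between 4199999 and 4200001 aligned reads after at most 1 incomplete line was dropped. The siCTL library came from sequencing run 183 and the other 3 from run 189, per the read names. Over the whole genome 81.9% and 82.3% of reads in the siCTL libraries had a mapping quality of 10 or more, against 54.7% and 55.1% in the siGPS2 libraries. This share thus differed with the siRNA, and the cause was not tested. The level of Gps2 and the markers of 3T3-L1 cells were not analysed here, because no annotation of build mm8 was used. Every interval given is a 95% interval for counting error within libraries. An interval for a sum over the 4 libraries leaves out the spread between them. With 1 library per group no difference has a replicate check and no p-value is given.

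The minus strand held 1791 reads in siCTL, 1781 in siCTL with FCCP, 1552 in siGPS2 and 1198 in siGPS2 with FCCP. The siGPS2 library with FCCP was the lowest and the siCTL pair was nearly equal. These were 22.1%, 26.5%, 14.3% and 16.8% of the mitochondrial reads of the libraries. The minus-strand reads had a mapping quality of 10 or more in 53.0%, 55.4%, 55.03% and 55.1% of cases, so the gap in mapping quality that separates the siRNAs over the genome was not seen on this strand. Reads with the same start, end and strand did not occur on the chromosome. On the minus strand the distinct 5′ positions came to 97.3%, 98.2%, 96.5% and 96.7% of the reads, and at most 4 reads of 1 library shared a position.

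**Figure D1:**
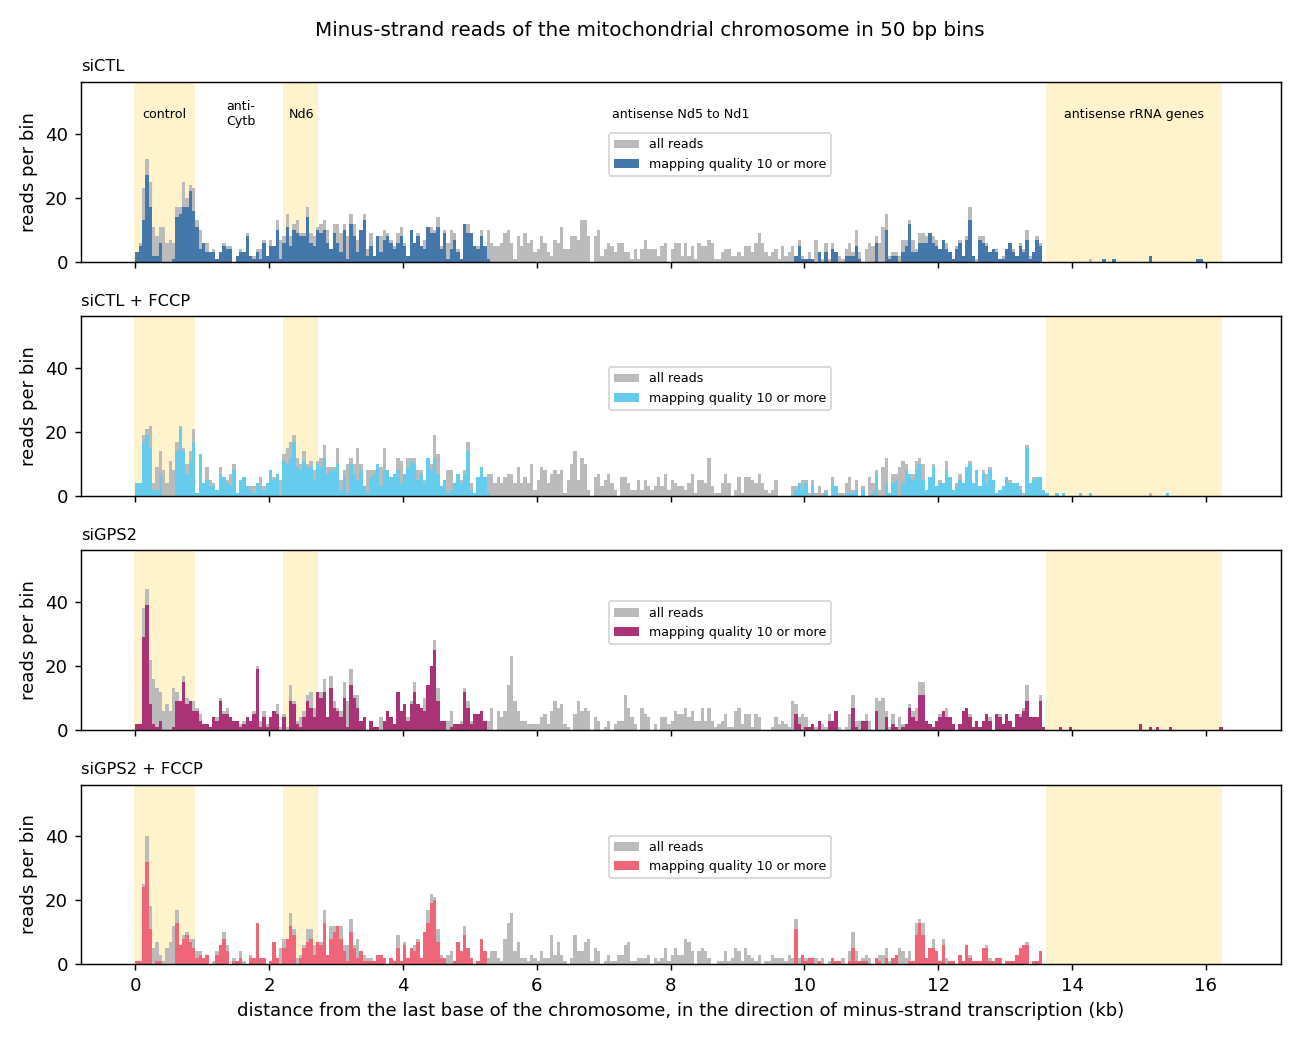
Minus-strand reads in 50 bp bins (y axis, unscaled) against distance from the chromosome's last base along minus-strand transcription (x axis, kb), 1 panel per library; grey bars are all reads and coloured bars those of mapping quality 10 or more, with the regions shaded in turn. Reads begin in the control region, continue to the end of the stretch antisense to Nd1 and are nearly absent antisense to the rRNA genes; 91 bins in the middle hold no read of quality 10 or more.

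Along the strand the read density was highest in the control region in 3 of the 4 libraries, and in siCTL with FCCP it was about the same there as over Nd6. In the control region it stood at 306, 252, 276 and 203 reads per kb. Antisense to Cytb it was 89.6, 104, 98.3 and 62.6 reads per kb. Every library had a lower density antisense to Cytb than in the control region. Over the 4 libraries the control region was 2.92-fold denser than the stretch antisense to Cytb (2.60 to 3.29), and 2.26-fold (1.97 to 2.59) on reads of quality 10 or more. Over Nd6 the density was 222, 254, 158 and 162 reads per kb. This was higher than antisense to Cytb, which lies upstream on this strand, by 2.48-fold in siCTL (1.88 to 3.27), 2.43-fold in siCTL with FCCP (1.88 to 3.15), 1.61-fold in siGPS2 (1.19 to 2.16) and 2.59-fold in siGPS2 with FCCP (1.86 to 3.61). On reads of quality 10 or more the ratio was 2.38, 2.40, 1.34 and 2.30, and in siGPS2 its interval (0.947 to 1.89) included 1. From Nd5 to Nd1 the density was 116, 117, 100.5 and 77.9 reads per kb. Antisense to the rRNA genes it was 2.69, 2.31, 3.08 and 0 reads per kb, far under each of the other stretches in all 4 libraries.

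**Figure D2:**
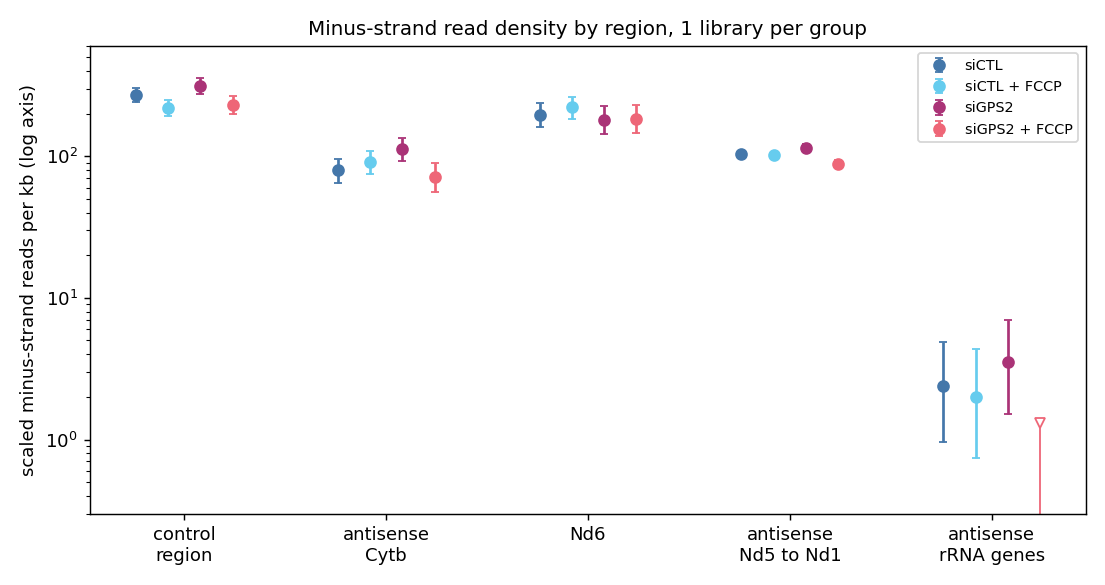
Minus-strand reads per kb divided by the library's scale factor (y axis, log scale) in the 5 regions, in the order of transcription, 1 point per library with its exact Poisson 95% interval; the open triangle is the limit of 3 reads for a count of 0. The control region and Nd6 are the densest, and the stretch antisense to the rRNA genes is the lowest in every library.

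The strand with more reads changed along the chromosome. In the control region 933 of 1077 reads of the 4 libraries were on the minus strand, or 86.6% (84.5% to 88.6%). Antisense to Cytb the minus strand held 19.6% (17.9% to 21.4%) and from Nd5 to Nd1 22.6% (22.0% to 23.2%). Over Nd6 it held 29.6% (27.1% to 32.1%), although Nd6 is a gene of the minus strand. By library the minus strand held between 14.6% and 54.5% over Nd6 and between 16.8% and 31.1% from Nd5 to Nd1. Antisense to the rRNA genes it held 21 of 7918 reads, or 0.265% (0.164% to 0.405%), and 0.228% without the siCTL library of the other sequencing run. Across the 271 bins from the chromosome's end to Nd1 the minus-strand and plus-strand reads, summed over the libraries, had a Pearson r of -0.35 and a Spearman rho of -0.28, a description of bins that share their libraries and mapping quality.

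**Figure D3:**
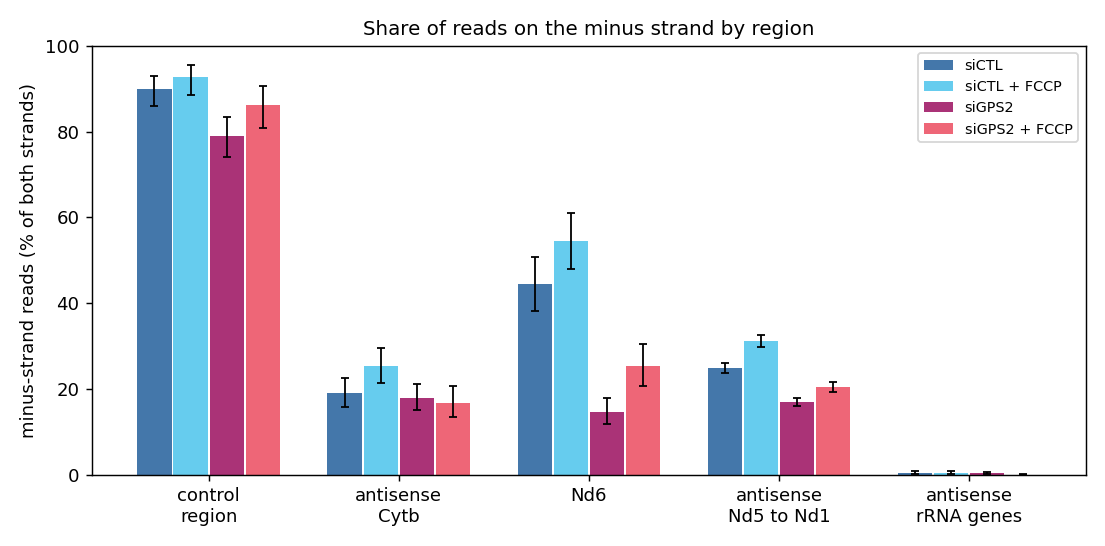
Minus-strand reads as a percentage of the reads of both strands (y axis) in each region, 1 bar per library with its exact 95% interval. The control region is above 78% in every library, the stretch antisense to the rRNA genes is under 1%, and over Nd6 the siCTL libraries stand above the siGPS2 libraries.

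Within the control region the reads rose close to the chromosome's end. The bin from 16251 to 16299 held 10 reads over the 4 libraries and the next, from 16201 to 16250, held 13. The bin from 16151 to 16200 held 23, 19, 38 and 25 reads, and the bin from 16101 to 16150 held 32, 21, 44 and 40. The bin from 16051 to 16100 held 25, 22, 22 and 18. These are the 3 busiest bins of the region by the sum over the 4 libraries, so reads of siGPS2 took part in the choice, and the values are a description. In the bins from 16101 to 16200 each siGPS2 library had more reads than the siCTL library of the same FCCP state. Of the reads in these bins 79.0%, 85.4% and 58.6% had a mapping quality of 10 or more. The 5′ ends were not stacked on 1 base. They lay at 492 positions of the region, the nearest to the chromosome's end 4 bases from it. The 2 positions with the most, 16100 and 16121, had 6 reads each and lie 199 and 178 bases from the chromosome's last base. In all, 9 positions had 5 reads or more. Of those with 5, 15521, 16122 and 16131 are named as the first in order of position.

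**Figure D4:**
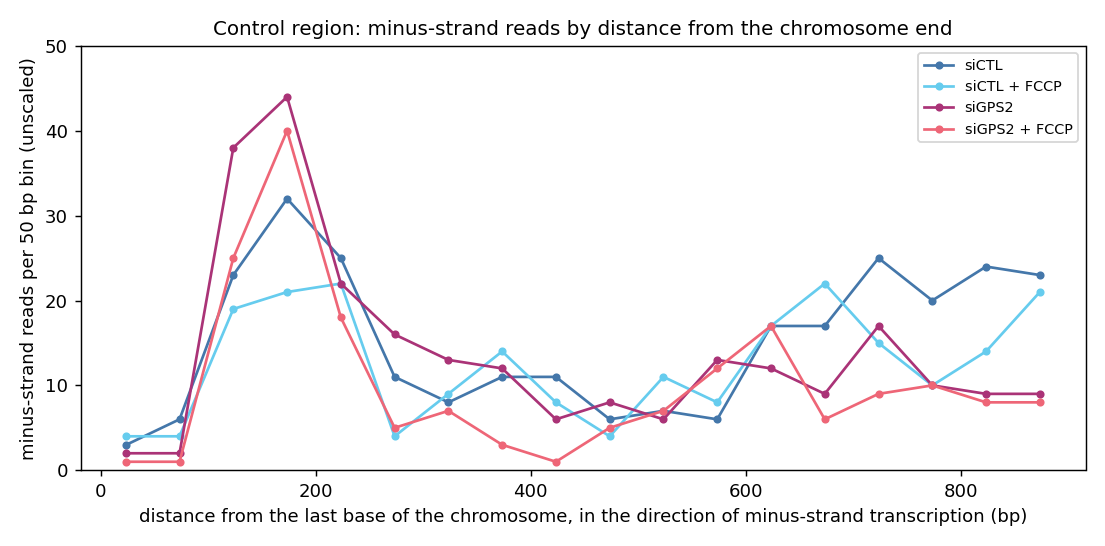
Minus-strand reads per 50 bp bin in the control region (y axis, unscaled) against distance of the bin's centre from the chromosome's last base (x axis, bp), 1 line per library. All 4 libraries rise between 100 and 200 bp; siGPS2 lines are the higher there, and siCTL lines are mostly the higher in the 6 bins farthest from the end.

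The 3 busiest bins of the control region together held 80, 62, 104 and 83 reads, and the other 15 bins held 195, 165, 144 and 100. As a share of all minus-strand reads the 3 bins came to 4.47% in siCTL, 3.48% in siCTL with FCCP, 6.70% in siGPS2 and 6.93% in siGPS2 with FCCP. No interval is given for these shares between the siRNAs, because the bin from 16151 to 16200 is among the 3 through its siGPS2 reads. The other 15 bins came to 10.9%, 9.26%, 9.28% and 8.35%. The 6 bins nearest Cytb, from 15401 to 15700 and picked after their values were seen, held 126, 99, 66 and 58 reads. Both siGPS2 libraries were lower there than both siCTL libraries.

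The 3 bins with the most reads antisense to Cytb were 14451 to 14500, 14151 to 14200 and 14951 to 15000, with 41, 30 and 28 reads over the 4 libraries. The first held 4, 4, 20 and 13 reads, and 95.1% of them had a quality of 10 or more. It is the busiest through its siGPS2 reads, so no ratio between the siRNAs is given for it. The second held 13, 7, 8 and 2 reads and the third 6, 6, 6 and 10, with overlapping groups. The groups between the stretches were thin. The 2 bins between the control region and Cytb, where the proline tRNA gene lies, held 23, 14, 12 and 8 reads, and the 2 bins between Cytb and Nd6, where the glutamate tRNA gene lies, held 15, 18, 6 and 13.

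Nd6 held 111 reads in siCTL, 127 in siCTL with FCCP, 79 in siGPS2 and 81 in siGPS2 with FCCP. Its busiest bins were 13951 to 14000 with 8, 17, 14 and 16 reads, 13901 to 13950 with 12, 19, 9 and 11, and 13701 to 13750 with 17, 10, 11 and 11. No single bin carried the gene's count, and these 3 held 155 of its 398 reads. Nd6 made up 6.20% (5.13% to 7.42%), 7.13% (5.98% to 8.43%), 5.09% (4.05% to 6.30%) and 6.76% (5.41% to 8.33%) of the strand's reads. The intervals of all 4 libraries overlap. The minus-strand share of both strands over Nd6 was 44.4%, 54.5%, 14.6% and 25.2%. Both siCTL libraries were above both siGPS2 libraries, with 139, 106, 463 and 240 plus-strand reads in the same bins. Per plus-strand read, Nd6 was lower in siGPS2 than in siCTL, with a log2 difference of -2.23 without FCCP (-2.73 to -1.73) and -1.83 with it (-2.35 to -1.31). It was higher with FCCP in both siRNAs, by 0.59 in siCTL (0.07 to 1.10) and 0.98 in siGPS2 (0.48 to 1.49). Scaled by nuclear windows, as below, the plus strand in these bins stood at 2.10 and 1.57 for siGPS2 against siCTL. Nd6 itself stood at -0.12 and -0.26. With FCCP the plus strand stood at -0.42 in siCTL and -0.955 in siGPS2, and Nd6 at 0.17 and 0.03. The ratios per plus-strand read thus follow mainly the plus-strand reads. The siCTL pair and the pair of siRNAs without FCCP each span both sequencing runs.

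From Nd5 to Nd1 the strand was read throughout, at a density that varied along the way. This stretch held 1257, 1266, 1085 and 841 reads, or 70.2%, 71.1%, 69.9% and 70.2% of the strand. In 11 segments of 1 kb, the last one shorter, the 4 libraries together gave 683 reads per kb in the segment next to Nd6 and 666 in the next. The density then declined to 241 reads per kb in the seventh segment, from 6552 to 7551. It was higher again in the ninth segment, at 433, and was 332.5 in the last, antisense to Nd1. The low middle lies only partly where reads are hard to place. The eighth segment had 252 reads per kb, with 47.2% of its reads of quality 10 or more. The fourth segment had 426 reads per kb and no read of such quality. What mapping contributed to the low middle was not tested. From 6451 to 11000, a run of 91 bins or 4550 bp, none of the 1516 minus-strand reads had a quality of 10 or more. The share of the strand's reads in this run was 24.6%, 23.4%, 23.8% and 24.2% and so was alike in the 4 libraries.

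The 3 busiest bins of this stretch were 11801 to 11850, 11851 to 11900 and 13451 to 13500. The first held 10, 19, 28 and 21 reads and the second 11, 10, 20 and 22, and both siGPS2 libraries were above both siCTL libraries in each. The third held 13, 16, 16 and 17. Of the 136 minus-strand bins with at least 20 reads over the 4 libraries, both siGPS2 libraries were above both siCTL libraries in 18, or 13.2%, and below both in 50, or 36.8%, by unscaled reads. Among such bins of both strands the shares were 25.5% above and 16% below. The named bins were picked by their sum over the 4 libraries. In these bins 84.6%, 88.9% and 75.8% of reads had a quality of 10 or more. The siGPS2 libraries were more uneven along the strand. The variance of all 326 bins over their mean was 4.41 in siCTL and 4.05 in siCTL with FCCP, against 6.10 in siGPS2 and 5.88 in siGPS2 with FCCP. Pearson's r between libraries was taken over the 271 bins from the chromosome's end to Nd1. It was 0.84 within the siGPS2 pair and 0.71 within the siCTL pair, and between 0.57 and 0.59 for the 4 pairs across siRNAs. Spearman's rho was closer between the pairs, at 0.68 within siGPS2 and 0.65 within siCTL, and between 0.49 and 0.53 across. These are descriptions over bins that share their sequence and mapping quality. The siCTL pair spans both sequencing runs and the siGPS2 pair does not.

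Minus-strand reads stopped between Nd1 and the rRNA genes, at the leucine tRNA gene. The last 10 bins antisense to Nd1, from 2751 to 3250, held 51, 55, 58 and 29 reads. The 2 bins from 2651 to 2750 held 0, 3, 1 and 0. The first 10 bins antisense to the rRNA genes, from 2151 to 2650, held 0, 3, 2 and 0. Summed over the libraries, 193 reads on one side faced 5 on the other, a ratio of 38.6 (16.3 to 120). The plus strand held 1257 reads in those 10 bins on the rRNA side, and 81.1% of them had a quality of 10 or more. Over all 52 bins antisense to the rRNA genes the libraries held 7, 6, 8 and 0 minus-strand reads. The count of 0 in siGPS2 with FCCP allows up to 0.250% of that library's minus-strand reads (3 reads, a one-sided limit). The busiest bin there, from 1101 to 1150, held 4 reads over the 4 libraries, and the bins from 1251 to 1300 and from 2001 to 2050 held 2 each. 19 of the 21 reads had a quality of 10 or more.

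Libraries were then compared after scaling by nuclear windows, with the question how mitochondrial uncoupling and GPS2 knockdown bear on this strand. In bulk cells, fewer cells with such RNA, fewer mitochondria in the preparation and less nascent RNA per mitochondrion cannot be told apart. How many mitochondria came along with the isolated nuclei was not measured here. In siCTL the whole strand differed with FCCP by -0.04 on the log2 scale (-0.13 to 0.06). The control region was lower, at -0.30 (-0.56 to -0.04), on 275 and 227 reads. That interval was -0.65 to 0.04 when it was widened by the spread between 200 bp bins, and the value was -0.25 (-0.57 to 0.07) on reads of quality 10 or more. The other stretches stood at 0.19 (-0.20 to 0.59) antisense to Cytb, 0.17 (-0.21 to 0.55) over Nd6 and -0.02 (-0.13 to 0.10) from Nd5 to Nd1. In this pair the libraries come from different sequencing runs, which cannot be told apart from FCCP.

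In siGPS2 the strand was lower with FCCP, at -0.38 (-0.49 to -0.27), or 1.30-fold. The control region stood at -0.45 (-0.73 to -0.16), and at -0.29 (-0.65 to 0.07) on reads of quality 10 or more, where the interval includes 0. The stretch antisense to Cytb stood at -0.66 (-1.10 to -0.22) and the stretch from Nd5 to Nd1 at -0.37 (-0.51 to -0.24). Nd6 stood apart from these with 0.03 (-0.44 to 0.49), on 79 and 81 reads. Its ratio to the rest of the strand was 0.44 (-0.03 to 0.90), an interval that includes 0. All 11 segments from Nd5 to Nd1 had a ratio below 0, between -1.10 and -0.18, and in 3 of them the interval excluded 0. In siCTL 5 of these segments were above 0 and 6 below, between -0.31 and 0.20. Antisense to the rRNA genes there were 8 reads without FCCP and 0 with it, too few for a ratio. In 88 nuclear windows of 10 kb with at least 1000 reads in the pair the median was -0.20, and 22.7% of them lay below the strand's value. The 5th to 95th percentiles of these windows ran from -0.61 to 0.39. In siCTL the median of 179 such windows was -0.05, and 52.5% lay below the strand's value there.

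The difference of the FCCP ratios, siGPS2 minus siCTL, was -0.35 for the whole strand (-0.49 to -0.20). It was -0.85 antisense to Cytb (-1.42 to -0.28), where the ratio was 0.19 in siCTL and -0.66 in siGPS2, and -0.36 from Nd5 to Nd1 (-0.53 to -0.19). In the control region it was -0.14 (-0.52 to 0.23) and over Nd6 -0.14 (-0.72 to 0.44), both with intervals that include 0. The difference over the whole strand lay between -0.42 and -0.35 under every alternative run, reads of quality 42 and total reads as scale among them. The scale factors are nearly equal within each siRNA, so total reads as scale could move it little. The other settings use the same reads or parts of them. The difference rests on 1 library per group, and the sequencing run differs within the siCTL pair alone.

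**Figure D5:**
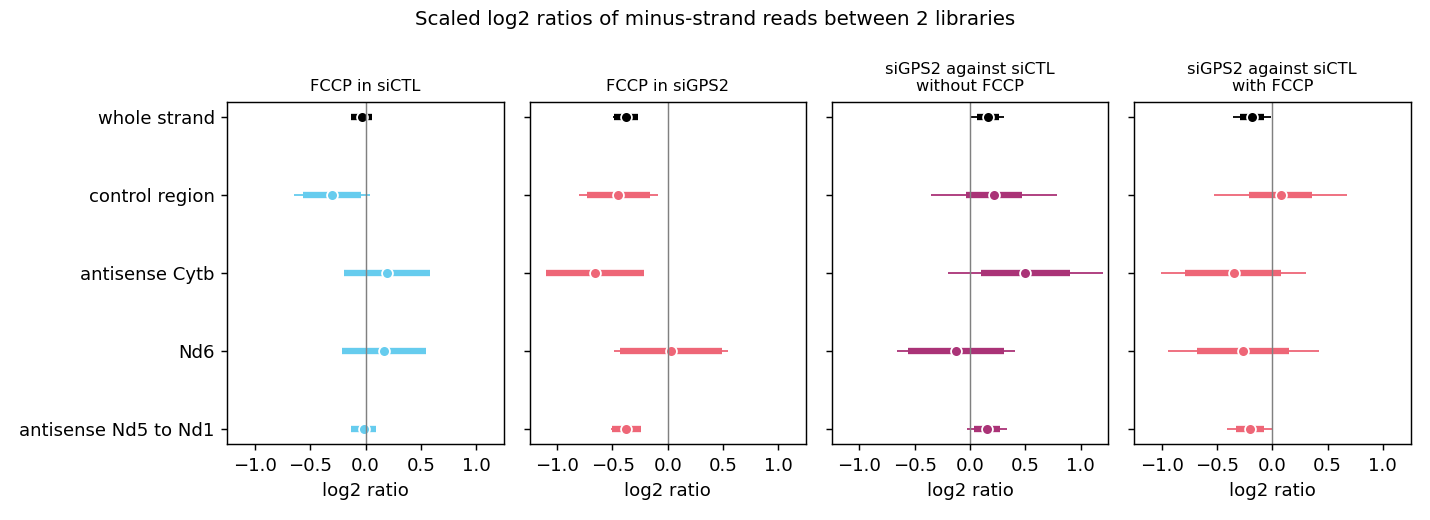
Scaled log2 ratios of minus-strand reads (x axis) for the whole strand and 4 regions (y axis), 1 panel per comparison of 2 libraries; thick lines are exact 95% intervals from counts and thin lines intervals widened by the spread between 200 bp bins. With FCCP in siGPS2 the whole strand and all regions but Nd6 lie below 0, and for siGPS2 against siCTL the widened intervals of every single region include 0.

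For siGPS2 against siCTL the whole strand stood at 0.16 without FCCP (0.06 to 0.26) and at -0.19 with it (-0.29 to -0.08). The sign of these values follows from the scale and from the reads used. With total reads as scale they were -0.21 and -0.57. The totals are nearly equal, so these are in effect ratios of unscaled counts. The depth of the libraries before deposit is not stated in the sources used here. With only the reads of quality at least 10 the values were 0.36 and -0.04, and with those of quality 42 they were 0.47 and 0.06. Neighbouring bins also moved together, and widened by the spread of 200 bp bins the intervals ran from 0.01 to 0.31 and from -0.36 to -0.01. In nuclear windows with at least 1000 reads in the pair, the 5th to 95th percentiles ran from -0.83 to 0.87 without FCCP. With FCCP they ran from -0.78 to 0.68, so the strand's main values lay within the spread of these windows. Antisense to Cytb the ratios were 0.50 (0.10 to 0.90) and -0.35 (-0.79 to 0.08). Without its busiest bin this stretch stood at 0.28 (-0.15 to 0.70) and -0.59 (-1.07 to -0.12). Over Nd6 the ratios were -0.12 (-0.56 to 0.31) and -0.26 (-0.68 to 0.15). From Nd5 to Nd1 they were 0.15 (0.04 to 0.27) and -0.20 (-0.33 to -0.08). The control region stood at 0.22 (-0.04 to 0.47) and 0.08 (-0.21 to 0.36). With the 200 bp spread the intervals of all these regions in both comparisons included 0. The pair without FCCP spans both sequencing runs, which cannot be told apart from the siRNA. The libraries with FCCP come from the same run.

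Set against the plus strand of the same library, which needs no scale, the minus strand was lower in siGPS2. Minus-strand reads per plus-strand read differed by -0.76 on the log2 scale without FCCP (-0.87 to -0.65) and by -0.83 with FCCP (-0.95 to -0.72). The plus strand itself was higher in siGPS2 in both states by the nuclear scale, at 0.92 and 0.65. With FCCP the minus strand was higher per plus-strand read, by 0.35 in siCTL (0.24 to 0.46) and by 0.27 in siGPS2 (0.16 to 0.39). The plus strand stood at -0.38 and -0.65 in these pairs. Reads of quality 10 or more gave -0.74 and -0.85 between the siRNAs and 0.37 and 0.27 with FCCP. Of these pairs, siCTL with and without FCCP and the siRNAs without FCCP span both sequencing runs. Plus-strand reads began at 35.2%, 27.9%, 49.6% and 32.9% of all positions and minus-strand reads at 10.7%, 10.7%, 9.19% and 7.10%, so a rule that keeps 1 read per position would weigh more on the plus strand, and its part in these ratios was not tested.

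Single bins are described by the number with at least 20 reads in the pair and a scaled ratio of at least 1.5-fold, with no interval. With FCCP in siCTL 7 of 49 minus-strand bins were higher and 8 lower, beside 2.71% higher and 34.6% lower among bins of both strands. With FCCP in siGPS2 2 of 35 were higher and 8 lower, beside 0.639% and 51.4%. For siGPS2 against siCTL 21 of 45 were higher and 5 lower without FCCP, beside 58.1% and 3.2%, and 14 of 37 were higher and 5 lower with FCCP, beside 47.6% and 4.48%. The balance of directions between the siRNAs follows the scale. With total reads as scale 11 bins were higher and 11 lower without FCCP, and 4 higher and 12 lower with it. The minus-strand counts are small, and few bins of this strand reach 20 reads. Of the bins lower with FCCP, 4 of 8 in siCTL and 4 of 8 in siGPS2 lay in the control region, which held 10 of the 49 and 9 of the 35 bins counted.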

How the data were processed

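The deposited files list aligned GRO-seq reads of 4 libraries, 1 line per read, with position, strand and a score from 0 to 42 that was read as the mapping quality. The submitters' processing notes name Bowtie, HOMER and build mm8, without versions. No other step is stated in the sources used here. Lines without a position were dropped, 1 in each of 3 libraries. Minus-strand reads of the mitochondrial chromosome were counted by 5′ end in 50 bp bins. Scale factors were medians of ratios over 35357 strand-specific nuclear windows of 10000 bp in which each library had 20 reads or more. They were 1.13 for siCTL, 1.15 with FCCP, 0.876 for siGPS2 and 0.880 with FCCP.

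Ratios of 2 libraries carry exact Clopper-Pearson 95% intervals, and ratios of ratios Wald intervals. Both cover counting error only, and reads are not known to be independent molecules. A second interval was widened by the chi-square dispersion between bins, at least 1, first of 50 bp and, after the data were seen, of 200 bp and 500 bp. The division of the control region and the ratio to plus-strand reads were also added after the data were seen. Bin ratios had 0.5 added to each count. The text names the 3 bins with the most reads in each region. It also names 5 of the 9 control-region positions with 5 or more 5′ ends, with ties cut in order of position. The region, the lists and these rules were chosen with earlier results of these data known. Intervals were checked on simulated Poisson counts whose bin means differed between libraries only by the scale factor and a set fold. Such counts hold no further spread between bins, so coverage under the spread of the real bins was not tested. Calculations used Python 3.11.15, numpy 2.4.6, pandas 2.3.3, scipy 1.17.1 and matplotlib 3.10.9. Stretch lengths taken from the bounds equalled those of the annotated transcripts in the 5 stretches checked. The stretch between Cytb and Nd6 was not among them, and at 74 bp it is longer than the glutamate tRNA, at 69. The stretch before the rRNA genes was not checked either.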

Additional observations from a re-analysis of the deposited data

Results flagged for a closer look

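Results are listed here where a contrast pointed in opposite directions in the 2 states of the other factor. Each rests on 1 pair of libraries per state, and the differences were not tested. The siCTL library without FCCP came from another sequencing run than the others, so each contrast spans both runs in 1 state only. Antisense to Cytb the log2 ratio with FCCP was 0.19 in siCTL and -0.66 in siGPS2, a difference of -0.85. In the same stretch the ratio of siGPS2 to siCTL was 0.50 without FCCP and -0.35 with it. This is the same difference of -0.85, taken from the same 4 counts. Without the busiest bin of the stretch these ratios were 0.28 and -0.59. For the whole minus strand the ratio of siGPS2 to siCTL was 0.16 without FCCP and -0.19 with it, a difference of -0.35. From Nd5 to Nd1 it was 0.15 and -0.20, a difference of -0.36. The last 2 pairs have 1 sign in both states when total reads set the scale.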

How the results depend on the processing

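No paired analysis was possible because each group has 1 library, and no library could be left out within a group. Of 232 values set against an alternative, regions and directions included, 174 stayed within the main interval or within 1.5 times the main count. Another 55 moved, and 3 whose main interval excludes 0 changed sign. Among the 174 are 4 values with intervals widened by 200 bp bins and 4 by 500 bp bins. Only their intervals were recomputed, so these values could not move. The FCCP ratios of the whole strand, their difference, and the shares with shared 5′ positions counted once kept within the main intervals under every alternative run. The ratio of siGPS2 to siCTL did not. Without FCCP it was -0.21 with total reads as scale, 0.36 with reads of quality at least 10 and 0.47 at quality 42. With FCCP it was -0.57, -0.041 and 0.056. From Nd5 to Nd1 the ratio without FCCP was -0.21 with total reads. Part of this follows from construction, since the scale factors differ between the siRNAs and hardly differ within each.

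On reads of quality 10 or more the control region held 18.7%, 15.6% and 18.03% of the strand in siCTL, siCTL with FCCP and siGPS2 with FCCP. The stretch antisense to Cytb held 8.75%, 9.74%, 11.2% and 9.24% in the 4 libraries, Nd6 9.06%, 10.1%, 6.56% and 9.24%, and the stretch from Nd5 to Nd1 60.6%, 61.2%, 62.9% and 62.0%. The cause was not tested. The run of 91 bins without such a read accounts for 1516 of the reads left out.

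Counts of bins past 1.5-fold depended on the setting. For FCCP in siCTL, FCCP in siGPS2 and siGPS2 against siCTL without and with FCCP they were 15, 10, 26 and 19. They were 50, 39, 75 and 72 with a minimum of 10 reads per bin. With reads of quality at least 10 they were 5, 2, 11 and 11. In bins of 100 bp, siGPS2 against siCTL with FCCP gave 32. With total reads as scale, siGPS2 against siCTL had 11 bins higher and 11 lower without FCCP, from 21 and 5, and 4 higher and 12 lower with it, from 14 and 5.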
